A study of Bombyx mori with 4 samples.

Results

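Transcription factors and chromatin proteins were followed in the larval midgut of the silkworm Bombyx mori, in libraries from a heat-tolerant and a heat-sensitive variety with and without exposure to high temperature. The members were the gene models whose best protein hit carried 1 of these terms: zinc finger, transcription factor, homeobox, histone, chromatin, chromodomain, bromodomain or mediator of RNA polymerase. Hormone and nuclear receptors and the NF-kappa-B p110 subunit were to be left out, which removed none of the matches. The rule used no measured value, but it was chosen with earlier results of these data known. The rule found 110 of 5558 gene models. Of these, 66 matched through zinc finger alone and 44 through another term.

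Midguts were taken on day 2 of the fifth larval instar from variety 932, which the labels call heat-tolerant, and from variety HY, which they call heat-sensitive. Each variety gave 1 library from control larvae and 1 from larvae kept at high temperature, so there were 4 groups of 1 library each, called 932 control, 932 heat, HY control and HY heat below. Where 4 values of a gene or list follow each other unlabelled, they stand in that order. The temperature, the length of the exposure and the number of larvae behind a library are not stated in the labels. No difference below has a replicate check or a test, and each comparison is between libraries.

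Sequence-specific transcription factors bind short DNA motifs near genes through folds such as the zinc finger, the homeodomain, the basic leucine zipper or the forkhead domain. They recruit coactivators, among them the Mediator complex, which bridges factors to RNA polymerase II. DNA is wrapped around histones, and enzymes that acetylate, deacetylate or methylate histones, together with remodelling helicases and heterochromatin proteins, set how accessible a gene is. In insects under heat stress, transcription is broadly redirected, with heat shock genes activated from promoters kept ready for release. A zinc finger is a fold and not a function. Some proteins named for it act outside transcription, for instance in protein quality control, membrane traffic or RNA binding.

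The deposited values scale each gene's tags to the library size (abbreviated RPM) and ignore gene length, so they compare libraries for a gene and do not rank genes by level. The totals recovered from the values were 6139297 tags (932 control), 5828615 tags (932 heat), 5799074 tags (HY control) and 6005744 tags (HY heat), and 1 tag was worth 0.163 to 0.172 RPM. The lowest listed value was 2 tags, so a gene listed at 0 had 0 tags or 1 tag. The listed genes took 11.6% to 18.6% of the tags. Midgut markers (digestive enzymes, proton pump and peritrophic matrix, 72 genes) summed to 12717 to 64225 RPM. That list also holds genes with other names, such as antitrypsin isoform 3 (BGIBMGA009953) at 13.0 to 30.5 RPM, a chymotrypsin inhibitor, phospholipases and adipose triglyceride lipases. They enter the gene counts given for the list below. Muscle markers (18 genes) summed to 879 to 1285 RPM, so the libraries also held RNA of the muscle layer. Markers of neurons and endocrine cells (24 genes) summed to 108 to 179 RPM, of fat body (13 genes) to 27.9 to 72.8, of hemocytes (13 genes) to 16.2 to 97.7, and of silk gland (2 genes) to 24.3 to 54.7. The silk gland sum came almost wholly from a gene named fibroinase precursor (BGIBMGA011342). Fibroin P25 (BGIBMGA009259) read 0.69 RPM in 932 heat and was listed at 0 elsewhere. In the fat body list a gene named 30kP protease A (BGIBMGA012788) gave 45.3 of the 72.8 RPM in 932 control. Cuticle and chitin synthase genes (22 genes), grouped as a list for trachea and epidermis, summed to 1807 to 4055 RPM. Of these, a chitin synthase (BGIBMGA002961) read 190 to 309 RPM and chitin synthase B (BGIBMGA002960) 3.1 to 11.4. Whether each gene of the list marks those tissues rather than the midgut itself was not tested. In such bulk tissue, fewer cells of a type and less RNA per cell cannot be told apart.

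Most members were near the limit of detection. The median member stood at 0.49 RPM in 932 control, 0.69 in 932 heat, 0.34 in HY control and 0.67 in HY heat. Over all genes the medians were 0.65, 0.69, 0.52 and 0.83. Members above 0 numbered 71, 73, 64 and 74 in the same order, which was 58.2% to 67.3% of the members against 64.8% to 71.1% of all genes. In all, 10 members were listed at 0 in every library, 49 were above 0 in every library, 60 reached 1 RPM in at least 1 library, 33 reached 3 RPM and 10 reached 10 RPM. The other 50 members stayed under 1 RPM throughout, and at this depth their differences between libraries were not detectable.

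The summed tags of the 110 members were fewest in 932 control and most in HY heat. The sums were 169 RPM in 932 control (exact 95% Poisson interval 159 to 179.5), 213 after heat in 932 (202 to 225), 227 in HY control (215 to 239.7) and 334.5 in HY heat (320.04 to 349), and the intervals cover counting error only. Without the most tagged member, zinc finger protein 228 (BGIBMGA001744), the sums were 162, 198, 187 and 275 RPM, so that 932 heat stood above HY control. The log2 ratio of 932 over HY was then -0.20 under control, against -0.43 with this gene. After heat it was -0.47, against -0.65. As a share of the listed tags all 110 members took 0.0907%, 0.140%, 0.196% and 0.223%. Heat over control gave a log2 ratio of the member sums of 0.34 [0.22 to 0.46] in 932, against -0.29 for the sum of all listed genes. In HY the ratio was 0.56 [0.46 to 0.66], against 0.37 for all listed genes. In 932 the listed sum fell from 186231 to 151859 RPM, while the median log2 ratio of genes reaching 1 RPM in either library was 0.02. The midgut list fell there from 64225 to 32045 RPM, and 1 lipase of it (BGIBMGA010400) from 22884.5 to 3229. The contrast with the listed sum, and the shares above, therefore also follow highly tagged midgut genes.

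**Figure D1:**
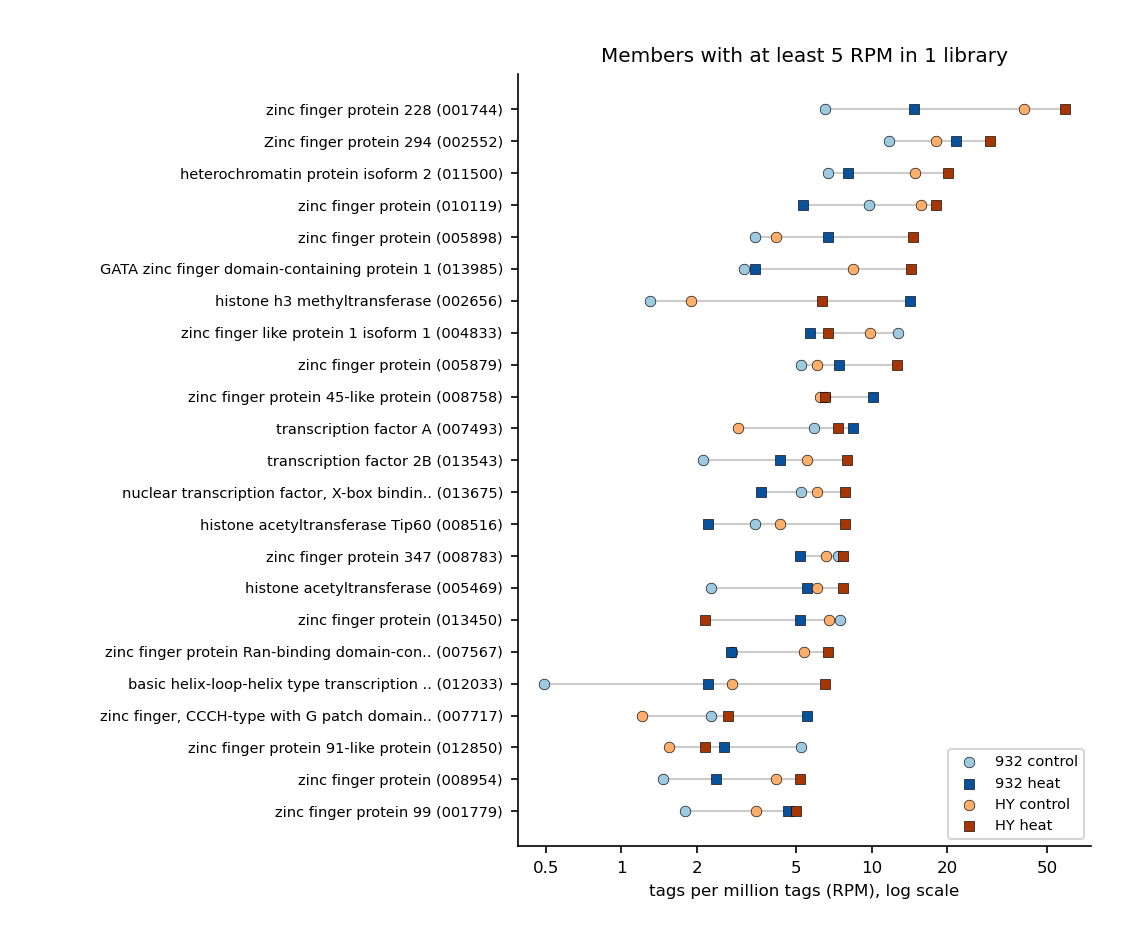
Values of the 23 members that reached 5 RPM in at least 1 library, in RPM on a log scale, with 1 point per library (circles for control, squares for heat) and the last 6 digits of the gene model in parentheses. Zinc finger protein 228 lies far apart between the varieties, from 6.52 RPM in 932 control to 59.1 in HY heat, and the histone h3 methyltransferase lies apart between control and heat in both.

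The first question was how these genes stood after heat in the tolerant variety 932. Each ratio is on the log2 scale after adding 1 RPM to both values, which understates the differences of low genes. Genes under 1 RPM in both compared libraries were left aside, and 2-fold was the threshold for a call. Square brackets hold the exact 95% counting interval for the ratio of tag numbers (log2, nothing added). Of 52 members above that floor, 8 were at least 2-fold higher after heat, or 15.4%, against a background of 11.1% of 2708 genes. Only 1 member, or 1.92%, was at least 2-fold lower, against a background of 9.86%. The median log2 ratio of the members was 0.41 and that of all genes 0.02. The counting interval lay wholly above equality for 11 members (21.2%, background 20.8%) and wholly below for 3 (5.77%, background 20.9%). The share of members on the higher side was near the background, and the share on the lower side was below it.

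The same comparison in the sensitive variety HY had to be read against a shift of the whole table, since the median of all 2810 genes above the floor was 0.34. Of 49 members, 6 were at least 2-fold higher after heat, or 12.2%, against a background of 14.1%, and 1 was lower, or 2.04%, against 4.59%. The median of the members was 0.43, or 0.09 relative to all genes. Centred on the median gene, 2 of 49 members were higher and 1 lower, against 4.52% and 8.61% of all genes. Intervals lay wholly above equality for 16 members (32.7%, background 32.2%) and below for 1 (2.04%, background 8.47%). In HY the shares of higher members were therefore near the background.

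Marker lists of the midgut and of other cell types also differed between these libraries. The midgut list summed to 64225 RPM in 932 control and 32045 in 932 heat, with 3 of 56 genes at least 2-fold higher and 21 lower. In HY it summed to 12717 in control and 21775 after heat, with 14 of 53 higher and 9 lower. Between varieties, 29 of 56 midgut genes were at least 2-fold higher in 932 under control and 5 lower, and 16 and 7 after heat, while the member sums were higher in HY. The cuticle list summed to 2995 and 4055 RPM in 932 and to 3688 and 1807 in HY. Muscle markers summed to 879 RPM in HY control and 1285 in HY heat, with none of 13 genes past 2-fold, and to 1043 and 947 in 932. The hemocyte list summed to 16.2 and 97.7 in HY, with 3 of 7 genes at least 2-fold higher, most of it from hemolin (BGIBMGA008736), an immune protein, at 10 RPM in control and 87.1 after heat. Hemocytin, the clotting protein that marks hemocytes, was at 0 in HY control and 1.67 after heat. In 932 the hemocyte list summed to 22.5 and 17.5. The part of these markers in the member values was not tested.

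Among enzymes that modify histones, 1 gene stood out in both heat comparisons. The gene model BGIBMGA002656, named histone h3 methyltransferase after its monarch butterfly hit, belongs by name to the enzymes that place methyl groups on histone H3. It read 1.3 RPM in 932 control, 14.2 in 932 heat, 1.9 in HY control and 6.33 in HY heat. Both control libraries were low, both heat libraries were above them, and 932 heat was the highest. The log2 ratio for heat was 2.73 [2.40 to 4.71] in 932 and 1.34 [0.74 to 2.86] in HY. It had the highest ratio of all members in 932, and in 932 it stayed past 2-fold under every scaling and added value tried. In HY it was past 2-fold as deposited and with median-of-ratios factors, at 1.06, and just short of it centred on the median gene. With an added 0.1 the HY ratio was 1.68, and with an added 10 it was short of 2-fold, at 0.46. The response in 932 exceeded that in HY by 1.39, with an approximate counting interval of 0.29 to 3.07. The pattern meant for histone proteins had taken in this enzyme, so it is described here with the enzymes.

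The acetyltransferases went different ways. Tip60 (BGIBMGA008516), the catalytic subunit of an acetyltransferase complex that acts in transcription and DNA repair, read 3.42 RPM in 932 control, 2.23 in 932 heat, 4.31 in HY control and 7.83 in HY heat. Its ratio was -0.45 [-1.74 to 0.45] in 932 and 0.73 [0.13 to 1.62] in HY, so that only the HY interval was clear of equality. The difference of the responses was -1.19, with an approximate interval of -2.65 to -0.24, and HY heat was the highest library. A second acetyltransferase (BGIBMGA005469), whose hit gives no finer name, read 2.28, 5.49, 6.04 and 7.66 in the same library order. There 932 control was the lowest and the other libraries lay close together, with a ratio of 0.98 [0.32 to 2.29] in 932 and 0.30 [-0.32 to 1.02] in HY.

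The remaining enzymes of this class were low. A gene named histone-lysine methyltransferase SETMAR after its best hit (BGIBMGA007557) ranged from 0.86 RPM in 932 heat to 2.66 in HY heat. Whether it encodes such an enzyme was not tested. A histone deacetylase 8-like gene (BGIBMGA012984) ranged from 0.49 to 1 RPM. The deacetylases BGIBMGA013166 and BGIBMGA005759 were listed only in HY heat, at 0.33 RPM each. These were given for completeness of the class and lay below the rule for named genes. The 7 genes named as enzymes together summed to 9.61 RPM in 932 control and 23.3 after heat, and to 14.5 and 26.1 in HY. The log2 ratio of these sums was 1.28 [0.83 to 1.75] in 932 and 0.85 [0.46 to 1.25] in HY. Without the H3 methyltransferase the 6 others gave 0.13 [-0.45 to 0.71] in 932 and 0.65 [0.22 to 1.10] in HY, so in 932 that gene carried the difference.

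The most tagged of the other chromatin proteins was read higher in HY than in 932. The heterochromatin protein BGIBMGA011500, of the family that binds methylated histone H3 in silent chromatin, read 6.68 RPM in 932 control, 8.06 in 932 heat, 14.8 in HY control and 20.1 in HY heat. Both HY libraries lay above both 932 libraries. Its ratio of 932 over HY was -1.04 [-1.72 to -0.60] under control and -1.22 [-1.84 to -0.82] after heat, while heat gave 0.24 [-0.36 to 0.91] in 932 and 0.42 [0.03 to 0.86] in HY. The gene whose hit is the histone variant H3.3 (BGIBMGA005550), which replaces H3 outside replication, read 3.75, 1.89, 2.07 and 2.83 RPM. The libraries overlapped within counting error, with ratios of -0.72 [-2.17 to 0.11] and 0.32 [-0.70 to 1.65] for heat, and 0.63 and -0.41 for 932 over HY under control and after heat.

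Of the 9 other chromatin proteins, 5 reached 1 RPM. The gene named after Mi-2 (BGIBMGA002931), a chromatin remodelling helicase, was outside the rule for named genes, and is given because it was the single member of this class at least 2-fold higher after heat. It was listed at 0 in HY control and read 1.5 RPM in HY heat, and it read 0.81 and 0.34 in 932 control and heat. Heterochromatin protein 1beta-like (Hp1b-l, BGIBMGA012860) ranged from 0.49 to 1.5 RPM, and a sir2 homologue (BGIBMGA001401), of the NAD-dependent deacetylases, from 0.67 to 1.47. One member of this class, chromatin modifying protein 1b (BGIBMGA012673), has a name shared with the ESCRT proteins of endosomal sorting, and it stayed at or below 0.51 RPM.

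Few members fell by name in the class of Mediator and general transcription factors. Mediator subunit 29, the gene ix (BGIBMGA010131), is the homologue of Drosophila intersex, a factor of female differentiation. It read 3.42 RPM in 932 control, 2.23 in 932 heat, 2.59 in HY control and 2.16 in HY heat. All ratios of this gene had counting intervals that included equality, from -0.45 for heat in 932 to 0.30 for 932 over HY under control. A TFIIH p52 subunit (BGIBMGA012623), part of the complex that opens promoters, reached 1.2 RPM at most, and a further TFIIH subunit (BGIBMGA010697) was listed at 0 in all 4 libraries. No member matched the pattern for elongation factors. Of the homeobox genes a LIM homeobox gene (BGIBMGA003208) read 1.2 RPM after heat in 932 and 0.34 in HY control, with 0 listed for the other two libraries, and BGIBMGA012988 was listed at 0 throughout.

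The class of other transcription factors held 23 members, of which 13 reached 1 RPM. It was formed by name and holds genes such as mitochondrial transcription factor B1 (BGIBMGA012012), so not every member need bind DNA motifs. In 932, 2 of 12 were at least 2-fold higher after heat and none lower (median 0.59), beside 11.1% and 9.86% of all genes (median 0.02). In HY, 1 of 9 was higher and none lower (median 0.40), beside 14.1% and 4.59% of all genes (median 0.34). Hlh54f (BGIBMGA012033), a basic helix-loop-helix factor whose Drosophila counterpart specifies longitudinal gut muscle precursors, read 0.49 RPM in 932 control, 2.23 in 932 heat, 2.76 in HY control and 6.49 in HY heat. It was higher after heat in both varieties and higher in HY in both conditions. The ratios were 1.12 [0.33 to 4.64] for heat in 932, 0.99 [0.36 to 2.17] for heat in HY, -1.34 [-4.92 to -0.69] for 932 over HY under control and -1.21 [-2.57 to -0.61] after heat. The muscle marker sums followed a different order, 1043, 947, 879 and 1285 RPM. Some of the 18 markers, picked after their values were seen, rose in the library order of Hlh54f. Smooth muscle caldesmon (BGIBMGA005552), an actin-binding protein, read 4.56, 12.2, 13.1 and 21.8 RPM. Tropomyosin-2 isoform 4 (BGIBMGA001584) read 81.8, 130, 175 and 182. Troponin I (BGIBMGA001030) read 3.42, 3.6, 3.62 and 4.66, almost level outside HY heat. The rest of the list did not rise in that order, and its most tagged genes stood lower in HY control than in 932 control. Muscle LIM protein (BGIBMGA001202) read 314, 206, 219 and 398 RPM. Troponin T (BGIBMGA013700) read 231, 215, 191 and 263, and muscle myosin heavy chain (BGIBMGA014227) 258.5, 203, 153 and 263. The part of muscle RNA in the values of Hlh54f was not tested.

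Transcription factor A (BGIBMGA007493) read 5.86 RPM in 932 control, 8.41 in 932 heat, 2.93 in HY control and 7.33 in HY heat. HY control was the lowest library, and the ratio for heat was 1.08 [0.48 to 2.22] in HY and 0.46 [-0.13 to 1.18] in 932. Transcription factor 2B (BGIBMGA013543), which the pattern for general transcription factors did not match, read 2.12, 4.29, 5.52 and 7.99 RPM. It was lower in 932 than in HY under control, at -1.06 [-2.44 to -0.41], and after heat, at -0.77 [-1.66 to -0.17].

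The X-box binding factor BGIBMGA013675 read 5.21, 3.6, 6.04 and 7.83 RPM, with both heat intervals including equality. The apoptosis antagonizing factor BGIBMGA002766, a nucleolar protein in vertebrates, read 3.58, 2.06, 4.31 and 4.66. The chorion b-ZIP factor Cbz (BGIBMGA006415), a basic leucine zipper protein named for eggshell genes, read 2.61, 3.6, 4.66 and 3 RPM, the opposite order by heat in the varieties, at 0.35 in 932 and -0.50 [-1.58 to 0.28] in HY. For these 3 genes no heat ratio reached 2-fold, and no heat interval was clear of equality.

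E2f1 (BGIBMGA003403), a factor of the cell cycle and DNA replication, was listed in 932 heat alone, at 1.03 RPM, or 6 tags. It was outside the rule for named genes and is given because it counted as 2-fold higher in 932. The GATA factor GATAc (BGIBMGA002157), the homologue of Drosophila grain, read 1.63, 0.69, 0.86 and 2.5 RPM, with ratios of -0.64 [-3.37 to 0.55] and 0.91 [0.00 to 3.35] for heat. The approximate interval of the difference of its responses, -4.71 to -0.47, was clear of 0. A metal response element-binding factor (BGIBMGA010900), of the family that induces metallothioneins, reached 1.63 RPM in 932 control and 0.51 to 0.69 in the others.

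The zinc finger class held 66 members, of which 34 reached 1 RPM. In 932, 4 of 30 were at least 2-fold higher after heat and 1 lower (median 0.41), and in HY 3 of 29 were higher and 1 lower (median 0.46). Beside 11.1% of all genes in 932 and 14.1% in HY, with medians of 0.02 and 0.34, the higher calls were near the background in both varieties. The class summed to 113.7, 135.5, 156.5 and 231.6 RPM. The most tagged was zinc finger protein 228 (BGIBMGA001744), at 6.52 RPM in 932 control, 14.8 in 932 heat, 40.5 in HY control and 59.1 in HY heat. Heat libraries stood above their controls in both varieties, and both HY libraries stood above both 932 libraries. The ratio for heat was 1.07 [0.62 to 1.76] in 932 and 0.53 [0.30 to 0.79] in HY, where centring on the median gene left 0.20, and for 932 over HY -2.46 [-3.16 to -2.15] under control and -1.93 [-2.36 to -1.66] after heat.

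Zinc finger protein 294 (BGIBMGA002552) carries the former name of listerin, the ubiquitin ligase that marks nascent chains on stalled ribosomes. By name alone it would belong to protein quality control rather than to transcription. It read 11.7 RPM in 932 control, 21.6 in 932 heat, 18.1 in HY control and 29.6 in HY heat. Both heat libraries were higher than their controls, with ratios of 0.83 [0.45 to 1.32] in 932 and 0.68 [0.35 to 1.07] in HY. The zinc finger like protein 1 (BGIBMGA004833), known in vertebrates as a Golgi membrane protein, read 12.7, 5.66, 9.83 and 6.66 RPM. It was the single member at least 2-fold lower after heat in 932, at -1.04 [-1.80 to -0.56], and its ratio in HY was -0.50 [-1.18 to 0.05].

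In HY the single member at least 2-fold lower was the zinc finger gene BGIBMGA013450. It read 7.49 RPM in 932 control, 5.15 in 932 heat, 6.73 in HY control and 2.16 in HY heat. The first 3 libraries lay close together and HY heat stood below them, with a ratio of -1.29 [-2.67 to -0.70] in HY and -0.47 [-1.26 to 0.15] in 932. The zinc finger gene BGIBMGA010119 read 9.77, 5.32, 15.7 and 18.0 RPM. Its heat ratio was -0.77 [-1.55 to -0.23] in 932 and 0.19 [-0.22 to 0.62] in HY, and the difference of -0.95 had an approximate interval of -1.80 to -0.32.

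A pair of zinc finger genes with the same best hit had their highest values in HY heat. BGIBMGA005898 read 3.42 RPM in 932 control, 6.69 in 932 heat, 4.14 in HY control and 14.6 in HY heat, with ratios of 0.80 [0.17 to 1.81] in 932 and 1.61 [1.16 to 2.54] in HY. BGIBMGA005879 read 5.21, 7.38, 6.04 and 12.6 RPM, with ratios of 0.43 [-0.19 to 1.21] and 0.96 [0.47 to 1.69]. Each was higher after heat in both varieties by its values, and the controls of the varieties lay close together. Because they share a hit, they may be close paralogues or pieces of 1 gene, and tags could have been split between them.

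Zinc finger protein 546 (BGIBMGA001719) was listed at 0 in 932 control and read 1.72 RPM in 932 heat, 0.34 in HY control and 3.33 in HY heat. With the H3 methyltransferase it made up the 2 members at least 2-fold higher in both varieties, which was 3.33% of 60 members against 1.84% of 3214 genes. The HY ratio of 1.69 [1.23 to 6.41] was the highest of all members there, and it rests on 2 tags in HY control. Zinc finger protein 268 (BGIBMGA004389) was listed in 932 heat alone, at 1.37 RPM, and lay outside the rule for named genes. So did the LIM homeobox gene and E2f1, and thus 4 of the 8 members that counted as 2-fold higher in 932 were listed at 0 in control.

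Zinc finger protein 99 (BGIBMGA001779) read 1.79, 4.63, 3.45 and 5 RPM, with a ratio of 1.01 [0.31 to 2.53] in 932 and 0.43 [-0.33 to 1.43] in HY. The CCCH-type gene with a G patch (BGIBMGA007717), a family of RNA and DNA binding proteins, read 2.28, 5.49, 1.21 and 2.66 RPM, with ratios of 0.98 [0.32 to 2.29] and 0.73 [-0.22 to 2.67]. The zinc finger protein 2-like gene (BGIBMGA000133) was flat in 3 libraries at 0.86 to 1.14 RPM and read 3.33 in HY heat, a ratio of 1.09 [0.32 to 3.29]. The zinc finger protein 91-like gene (BGIBMGA012850) read 5.21 RPM in 932 control and 1.55 to 2.57 in the others, with a ratio of -0.80 [-2.01 to -0.09] for heat in 932.

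The rest of the named zinc finger genes had heat ratios within 2-fold in both varieties, as had the remaining 2 members that reached 3 RPM (BGIBMGA010340, a KRAB and C2H2 type gene, at 2.24 to 4.16 RPM, and BGIBMGA004948, zinc finger protein 28, at 1.63 to 3.5). The GATA zinc finger domain gene (BGIBMGA013985), whose vertebrate counterpart sits in a histone-binding complex, read 3.09, 3.43, 8.45 and 14.3 RPM, with HY above 932 in both conditions. The Ran-binding gene BGIBMGA007567, of a family with RNA-binding members, read 2.77, 2.75, 5.35 and 6.66 RPM and showed the same split. BGIBMGA008954 read 1.47, 2.4, 4.14 and 5.16 RPM. Zinc finger 45-like (BGIBMGA008758) was highest in 932 heat, at 10.1 RPM against 6.21 to 6.52 in the others, zinc finger protein 347 (BGIBMGA008783) ranged from 5.15 to 7.66 and the ZZ domain gene (BGIBMGA007688) from 1.72 to 3.95.

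**Figure D2:**
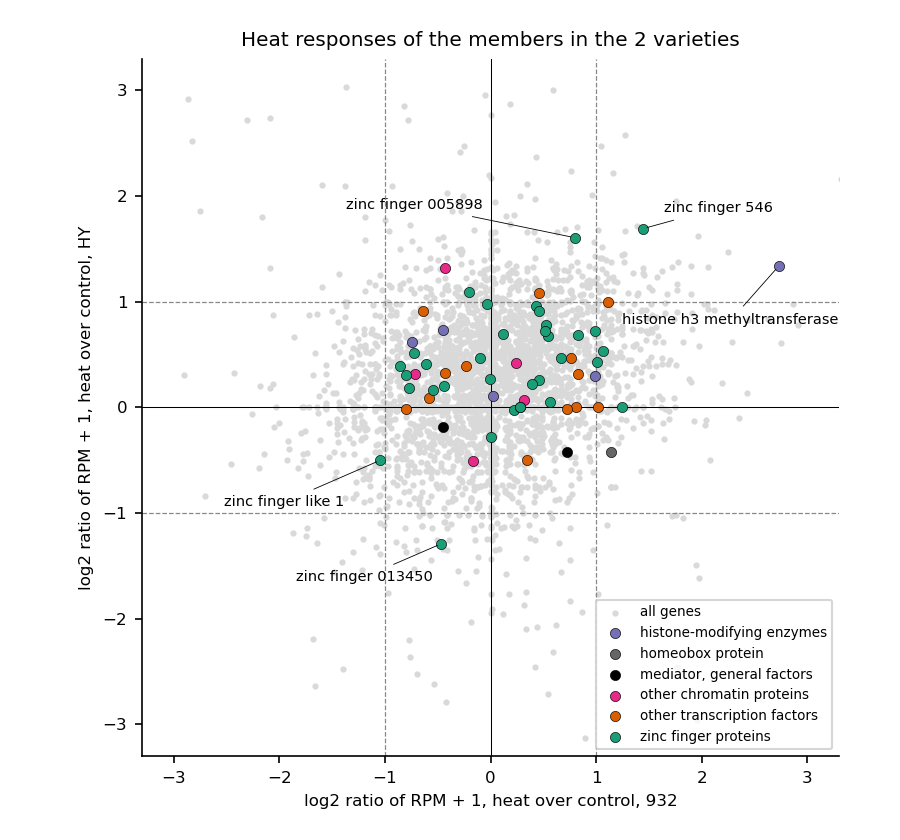
Heat over control in 932 (horizontal) and in HY (vertical) as log2 ratios of RPM plus 1, for the 60 members with at least 1 RPM in 1 library (coloured by role) and for all genes (grey; 23 of 3214 genes lie outside the axes). Dashed lines mark 2-fold. The histone h3 methyltransferase lies farthest to the right, at 2.73 and 1.34, and no member lies past 2-fold in opposite directions.

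The next question was how the members differed between the varieties. Under control, 3 of 45 members, or 6.67%, were at least 2-fold higher in 932 than in HY, against a background of 17.9% of 2780 genes, and 8, or 17.8%, were lower, against 15.1%. The median was -0.05, with 0.05 for all genes. Intervals lay above equality for 4 members (8.89%, background 27.7%) and below for 10 (22.2%, background 21.6%). After heat, 8 of 56, or 14.3%, were higher, against 14.1% of 2990 genes, and 12, or 21.4%, were lower, against 20.8%. The median was -0.25, with -0.26 for all genes, and intervals lay above equality for 7 members (12.5%, background 19.5%) and below for 18 (32.1%, background 33%). Centred on the median gene, 10 members were higher in 932 after heat and 5 lower, and the split of all genes turned in the same way, to 17.9% higher and 11.8% lower. These comparisons use the same libraries as the heat comparisons.

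The varieties could also be compared in libraries that do not overlap, since the control pair and the heat pair share none. The members at least 2-fold lower in 932 in both conditions were 4, or 6.67% of 60, against 241 of 3214 genes, and 1 member, or 1.67%, was higher in both, against 6.69%. The 4 were zinc finger protein 228, the heterochromatin protein BGIBMGA011500, Hlh54f and the GATA zinc finger domain gene, whose ratios were -1.21 [-2.30 to -0.66] under control and -1.79 [-2.84 to -1.35] after heat. All of them were named by the rule and are described with their values in every library above. In each of them both HY libraries were higher than both 932 libraries.

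The 1 member higher in 932 in both conditions was zinc finger protein 91 (BGIBMGA001624), which read 1.95 RPM in 932 control and 2.57 in 932 heat and was listed at 0 in both HY libraries. It lay below the rule for named genes, as did the next genes, which were picked after their values were seen. A KRAB-E2S type zinc finger factor (BGIBMGA001621) read 0.65 and 1.89 RPM in 932, and zinc finger protein 813 (BGIBMGA010321) read 0.81 and 1.2 RPM, with 0 in both HY libraries for each. In all, 8 members, or 7.27%, were above 0 in both 932 libraries and listed at 0 in both HY libraries, against 4.23% of all genes. The reverse held for 3 members, or 2.73%, against 4.64%. Of the 3, a model of zinc finger protein 729 (BGIBMGA008800) read 1.03 RPM in HY control and 0.67 in HY heat.

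**Figure D3:**
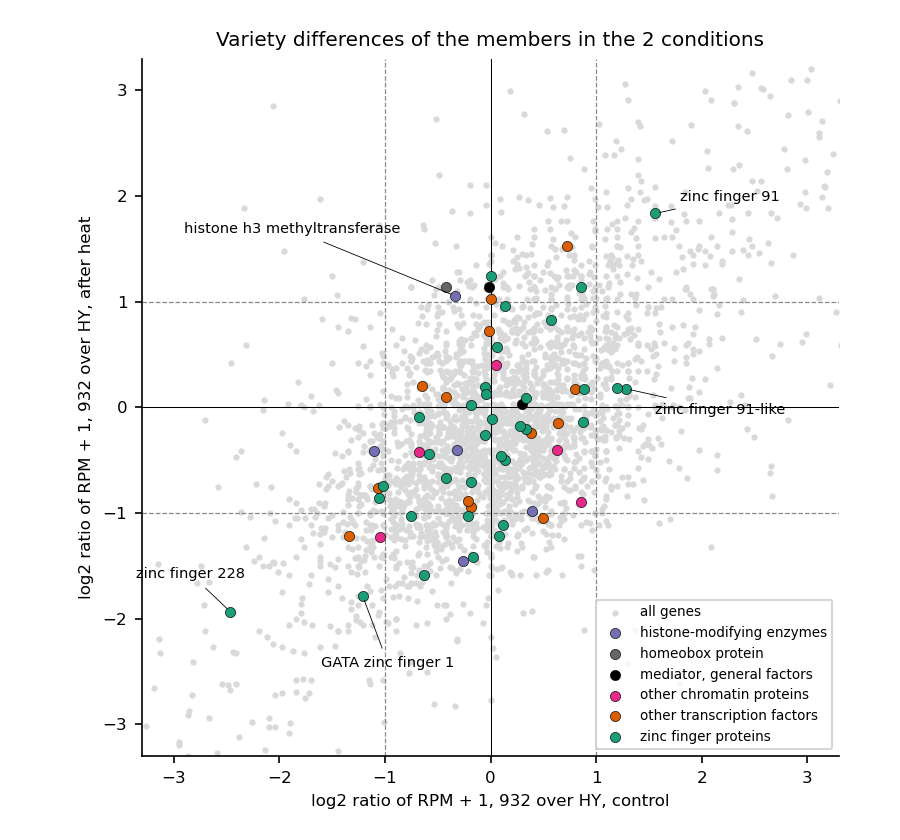
Ratio of 932 over HY under control (horizontal) and after heat (vertical) as log2 of RPM plus 1, for the same 60 members and all genes (grey; 108 of 3214 genes lie outside the axes). Dashed lines mark 2-fold. Zinc finger protein 228 lies lowest on both axes, at -2.46 and -1.93, and zinc finger protein 91 is the single member past 2-fold in the upper right.

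The last question was whether the heat responses differed between the varieties. Of 60 members, 5 had a response greater in 932 by at least 2-fold, or 8.33%, against a background of 8.09% of 3214 genes, and 11 had one smaller by as much, or 18.3%, against 18.8%. The median difference was -0.20, with -0.25 for all genes, and these shares were those of the whole table. Approximate counting intervals of the difference lay above 0 for 3 members (5%, background 8.84%) and below 0 for 5 (8.33%, background 20.4%). Above 0 were the H3 methyltransferase, zinc finger protein 228 at 0.53 (0.04 to 1.21) and the LIM homeobox gene, which was listed at 0 in 2 libraries. Below 0 were Tip60, the SETMAR-type gene, Mi-2, GATAc and BGIBMGA010119. By sign alone, 25 of 60 members were higher after heat in both varieties (41.7%, 34.3% of all genes), 19 were lower in 932 and higher in HY (31.7%, 27.2%), 5 were lower in both (8.33%, 17.5%) and 5 were higher in 932 and lower in HY (8.33%, 11.8%). Of the 60 members, 32 had their highest value in HY heat, or 53.3%, against 41.6% of genes, and 2 in HY control, or 3.33%, against 12.7%.

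Some members cannot be read as separate genes. In 7 cases a pair of members shared a best hit, 14 members in all. Zinc finger protein 228 had a second model (BGIBMGA001741) that read 1.47, 2.4, 1.03 and 2.83 RPM and did not show the variety difference of the first. The second GATAc model (BGIBMGA002158) read 0.34 to 0.83 RPM, and the second X-box binding model (BGIBMGA004430) 0.33 to 1.2. A pair named zinc finger protein 347 (BGIBMGA008760 and BGIBMGA008761) stayed at or below 1.47 RPM. It has the name of BGIBMGA008783 but a different best hit. With each such pair summed into 1 member, a choice made after seeing the data, 8 members were higher and 1 lower after heat in 932, and 6 and 1 in HY, the same counts as before.

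Genes of the same pathway outside the rule gave a setting for these values. RNA polymerase subunits and partners (17 genes) had 1 of 12 at least 2-fold higher and 2 lower after heat in 932, median 0.03, and none of 14 past 2-fold in HY, median 0.27. The RNA polymerase II subunit rpb11 (BGIBMGA006752) read 6.03 RPM in 932 control, 1.2 in 932 heat, 2.76 in HY control and 3.66 in HY heat, a ratio of -1.68 [-3.74 to -1.14] in 932. The largest subunit of RNA polymerase I (BGIBMGA014133), the enzyme that transcribes ribosomal RNA, read 44.1, 47.5, 97.6 and 124.7 RPM. Both HY libraries were again above both 932 libraries. The list sums were 91.2, 91.8, 141.9 and 181 RPM, and their gap between the varieties came mainly from this 1 gene. A second model named for that subunit (BGIBMGA014134) read 1.3, 1.03, 1.55 and 2.33 RPM. Its intervals of 932 over HY included equality in both conditions. Other transcription regulators outside the rule (29 genes) had 2 of 9 higher and none lower in 932 (median -0.08), and 1 of 10 higher and 1 lower in HY (median 0.36). Forkhead box K1 (BGIBMGA014424), a forkhead factor, read 6.68, 14.6, 19.3 and 24.6 RPM, a ratio of 1.02 [0.57 to 1.70] for heat in 932 and 0.34 [-0.01 to 0.72] in HY. Chromatin regulators outside the rule numbered 3 genes, with none past 2-fold after heat, among them a nucleosome assembly protein (BGIBMGA009249) at 0.81, 2.57, 2.59 and 3 RPM.

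As a check that the heat label fits the libraries, the 22 genes of the heat stress list summed to 1453 RPM in 932 control and 2336 in 932 heat, and to 1182 and 1730 in HY. Of these, 8 of 18 were at least 2-fold higher and 1 lower in 932, and 7 of 20 higher and none lower in HY. The shares among transcription and chromatin members, 8 of 52 and 6 of 49, are set beside these as values.

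**Figure D4:**
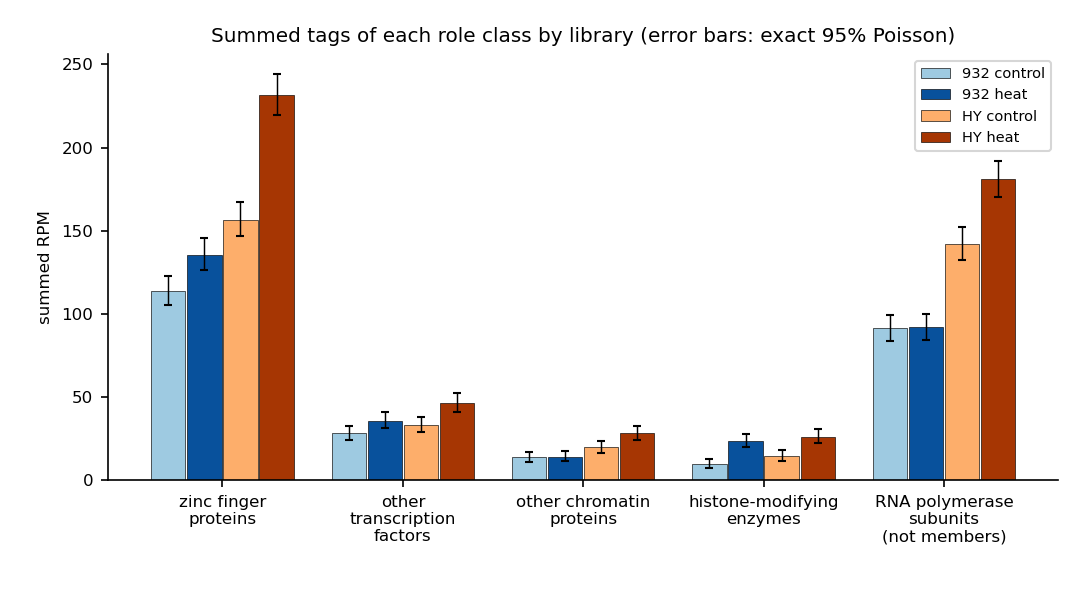
Summed RPM of the members in the 4 role classes with the most tags and of RNA polymerase subunits, which are not members, in the 4 libraries, with exact 95% Poisson intervals as error bars. HY heat is the tallest bar in every group drawn, with 231.6 RPM for zinc finger proteins and 26.1 for histone-modifying enzymes, where 932 heat reaches 23.3. A single subunit (BGIBMGA014133) gave 124.7 RPM of the RNA polymerase bar in HY heat. The 3 Mediator and general factors, not drawn, read lowest in HY heat, at 2.16 RPM (1.15 to 3.70). That interval overlapped those of the other libraries, such as 932 control at 3.75 RPM (2.37 to 5.62). Transcription factor 2B, not in that class, read highest in HY heat, at 7.99 RPM.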

How the data were processed

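Per the labels' protocols, Trizol served to extract midgut RNA, and libraries followed the usual Illumina preparation. The aligner, the counting tool and the genome build are not given in the sources used here, so coordinates and sequences are left out. The deposited values are called normalized TPM per the file headers. They behave as RPM deposited by the authors: at the totals in the report, 100% of the entries come to a whole tag number (tolerance 0.0051 RPM), and no length correction shows. In HY, 4 totals for control and 5 for heat gave the same share, and the one used was among them. Each library was placed by its variety and stress labels.

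Computed here were log2 ratios of the value plus 1, with a floor of 1 RPM and a 2-fold rule, over all 5558 genes, and exact conditional 95% intervals (Clopper-Pearson) of tag numbers, in which a value listed at 0 was taken as 0 or 1 tag, whichever widened the interval. The difference of responses had a normal approximation with 0.5 tag added. With 1 library per group there was no test. Product names are those of the best hit: 89 members had a monarch butterfly hit, 12 a silkworm hit and 9 another. Symbols came from RefSeq (assembly ASM3026992v2) for the 11 silkworm RefSeq hits, and 11 matched.

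Members with at least 3 RPM in 1 library were named by the 10 highest and 10 lowest ratios of each heat comparison, the 6 highest and lowest of each variety comparison and of the difference, the 10 highest means, and up to 4 members per role by mean, 31 in all, of which 1 is not reported here. The members and lists were chosen with earlier results of these data known. Alternatives were centring on the median gene, median-of-ratios factors, no floor, a floor of 10 RPM, added values of 0.1 and 10, and members without those matched by zinc finger alone. The calculations were tested on simulated data. The software was scipy 1.17.1 with numpy 2.4.6 and pandas 2.3.3, under Python 3.11.15, and figures came from matplotlib 3.10.9.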

Additional observations from a re-analysis of the deposited data

How the results depend on the processing

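No paired analysis was possible because each group held 1 library. Of 80 recomputed counts of members past 2-fold, 40 stayed within 1.5 times. Ratios of low members move with the added value: that of BGIBMGA000133 in HY, 1.09, became 1.60 with 0.1 and 0.27 with 10. No named heat ratio past 2-fold changed sign. The medians of the heat comparisons kept their sign in every setting. The median of 932 over HY after heat was -0.25 and became 0.00 centred and 0.02 with median-of-ratios factors, and that of the difference was -0.20 and became 0.12, 0.01 and, without matches of zinc finger alone, 0.02.

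Parentheses below hold the share of all genes in the same setting. Centred on the median gene, 2 members were higher in HY after heat (4.52%), and 5 lower in 932 than HY after heat (11.8%). The response was greater in 932 for 10 of 60 members (14.3%) and smaller for 3 (10.4%). As deposited these shares of all genes were 8.09% and 18.8%, so the whole table turned in the same direction. With median-of-ratios factors, 2 were lower in 932 after heat (11.3%) and 6 lower in 932 than HY after heat (13.7%). There 6 responses were smaller in 932 (13.0%). With an added 0.1, 15 were higher and 5 lower in 932 after heat, 14 higher in HY, 6 higher in 932 than HY under control, and 10 responses greater in 932. With an added 10, 1 was higher (1.33%) and 0 lower (1.99%) in 932, and 0 (1.99%) and 0 (0.925%) in HY. Between varieties 0 were higher (4.86%) and 1 lower (3.17%) under control, and 0 (3.08%) and 1 (3.95%) after heat. Of the responses, 0 were greater (1.34%) and 0 smaller (3.73%) in 932. With a floor of 10 RPM, 5 members remained in 932 and 7 in HY. Of these, 2 were higher in 932 (11.7%), and 1 higher (15.2%) and 0 lower (4.89%) in HY. Between varieties 0 were higher (21.7%) and 2 lower (14.6%) under control, and 1 (14.5%) and 5 (21.4%) after heat. In 932, 1 response was greater (7.76%) and 0 smaller (21.1%). Without matches of zinc finger alone, 4 of 22 were higher (11.1%) and 0 lower (9.86%) in 932, and 3 of 20 (14.1%) and 0 (4.59%) in HY. Between varieties 0 of 18 were higher (17.9%) and 4 lower (15.1%) under control, and 5 of 25 (14.1%) and 4 (20.8%) after heat. In 932, 5 of 26 responses were smaller (18.8%). Fewer members were counted in the last 2 settings by construction; the cause of the other moves was not tested. Members that share a hit, summed, moved no count by over 1.5 times. Depth is a limit too: a member of 1 RPM rests on about 6 tags.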
